A study of Mus musculus with 2 samples.

Results

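The Pramel genes are a large mouse gene family related to human PRAME, an antigen of tumours and testis. Members were taken as all genes whose platform symbol starts with Pramel, which gave 34 of 22485 named genes, measured by 51 of 44397 array features. Of these genes, 22 rested on 1 feature and 12 on 2 to 4 features, which were averaged. All 34 were found in the RefSeq gene table, where Pramel28 is annotated as a pseudogene and the other members as protein-coding.

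PRAME family proteins are built from leucine-rich repeats, and most mouse members are known from oocytes, spermatogenic cells and early embryos. Human PRAME is known as a substrate receptor of a Cullin-2 ubiquitin ligase and as a repressor of retinoic acid (RA) receptor signalling. Pramel6 and Pramel7 are the members best known from the inner cell mass and embryonic stem (ES) cells, where Pramel7 is driven by STAT3 and sends Uhrf1, a factor that maintains DNA methylation, to degradation.

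The samples were total RNA of mouse ES cells of the wild-type line V6.5 and of Utx knockout ES cells, written UtxKO. Utx, the product of the X-linked gene Kdm6a, demethylates H3K27me3. Untreated cells of each line grew on gelatin with leukaemia inhibitory factor (LIF), and treated cells were kept for 48 h without LIF and with 100 nM RA. On 1 two-colour array per line, untreated RNA carried Cy3 and treated RNA of the same line Cy5. The effects of RA and of taking LIF away cannot be told apart here, and "RA" below stands for both. The labels do not say from how many clones or cultures the RNA of a line came.

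A value is the deposited log2 ratio of an array, read as treated over untreated. This direction is likely rather than stated: it rests on the dyes and on the RA-induced genes Cyp26a1 (3.54 in V6.5 and 4.27 in UtxKO) and Stra8 (4.37 and 4.91). With 1 array per line, neither the ratios nor the gaps between lines have a replicate check. The ratios hold no expression levels, so whether a member was expressed at all in untreated cells, and whether the ES cell markers were present, could not be examined. In bulk RNA, more cells with a transcript and more transcript per cell cannot be told apart. Ratios over all genes had a median of -0.02 on both arrays, and 2.52% of genes were at least 2-fold higher in V6.5 and 2.92% in UtxKO. Probe sequences were not used here, and Pramel genes have near-identical copies, so a probe may read several copies and each copy's own value is uncertain.

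The family split into members with very high ratios, members with intermediate ratios and members near 0. In V6.5, 13 of 34 members were at least 2-fold higher after RA and 0 at least 2-fold lower, where 1.59% of all genes were lower. In UtxKO, 11 of 34 were at least 2-fold higher and 0 lower, where 1.65% of all genes were lower. Member ratios had a median of 0.47 and a range of -0.24 to 4.49 in V6.5, and a median of 0.29 and a range of -0.18 to 5.05 in UtxKO. In the limma fit of the response shared by both arrays, 14 of 34 members rose at a Benjamini-Hochberg adjusted p under 0.05, where 8.93% of all genes rose. In limma 0 of the 34 members fell, where 7.93% of all genes fell. At an unadjusted p under 0.05 in limma, 16 members were higher and 0 lower. Of all 22485 genes, 16.8% were higher and 4027 genes lower by that measure. The counts by fold, the ranges and these calls are described for a family whose high ratios were already known when it was chosen.

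**Figure D1:**
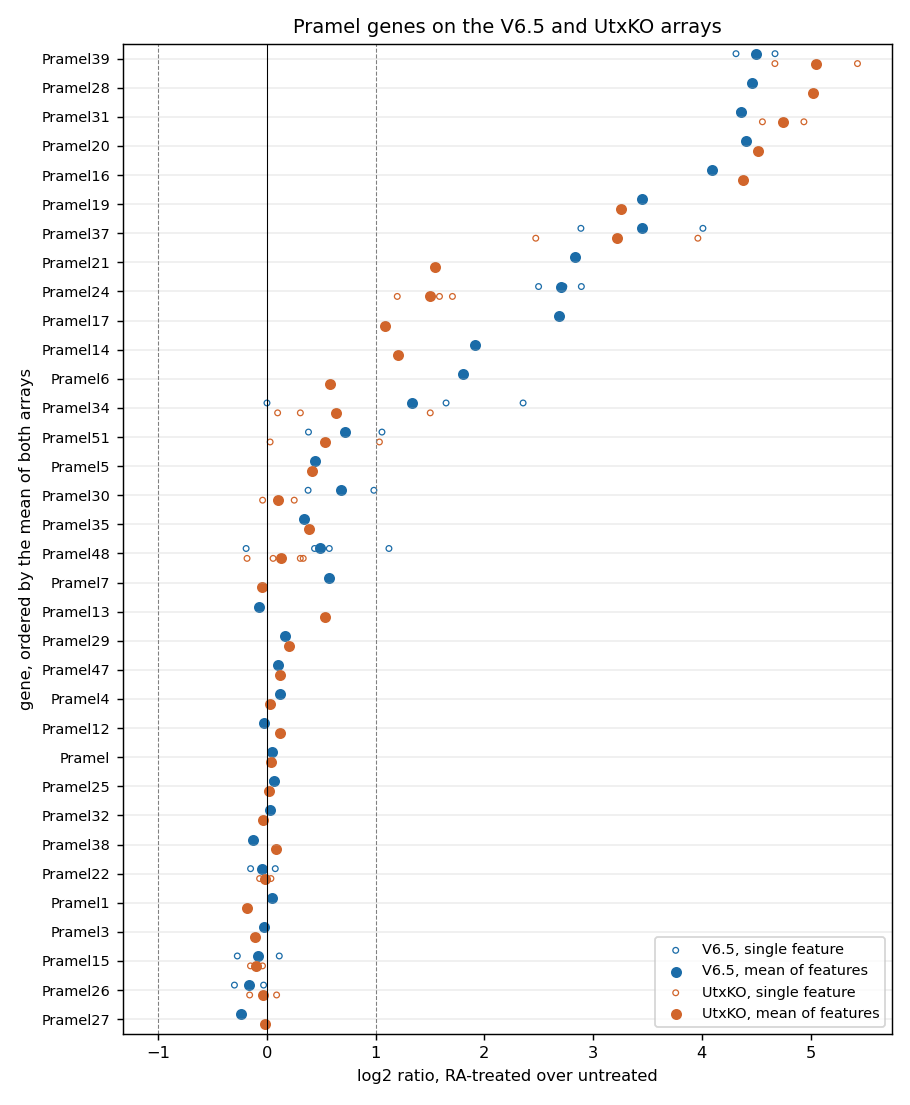
Deposited log2 ratio, treated over untreated (x axis), for each of the 34 Pramel genes (y axis, ordered by the mean of both arrays), in V6.5 (blue) and UtxKO (orange). Filled points are gene means, open points single features, and dashed lines mark 2-fold. The 7 highest genes lie above 3 on both arrays, and the 6 below them lie further left in UtxKO than in V6.5.

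The 7 highest members were Pramel39, Pramel28, Pramel31, Pramel20, Pramel16, Pramel19 and Pramel37, each at least 8-fold higher on both arrays. Over the whole platform 42 genes, 0.187%, reached 8-fold on both, with 0.24% in V6.5 and 0.258% in UtxKO. Little is established about the function of these members beyond their place in the family. The ratio of Pramel39 was 4.49 in V6.5 and 5.05 in UtxKO, and that of Pramel28 4.46 and 5.02. Pramel31 had 4.36 and 4.75, Pramel20 4.40 and 4.51, and Pramel16 4.09 and 4.38. All 5 genes were higher on the UtxKO array than on the V6.5 array, and all lay among the 19 highest of 22485 genes on each array. Pramel19 had 3.45 and 3.26 and Pramel37 3.45 and 3.22, slightly lower in UtxKO.

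As folds, these were 22.5-fold in V6.5 and 33.1-fold in UtxKO for Pramel39 and 10.9-fold and 9.56-fold for Pramel19. All 7 rose in the limma fit across both arrays. The mean log2 ratio with limma's moderated SE (n = 2 arrays) was 4.46 ± 0.08 for Pramel20 (adjusted p = 0.00381 in limma), 4.23 ± 0.10 for Pramel16 (adjusted p = 0.00381 in limma) and 4.77 ± 0.16 for Pramel39 (adjusted p = 0.00519 in limma). This SE borrows from the spread of all genes, and the fit counts any difference between the lines as error. These 7 were also the only members that rose when tested against a 1.5-fold change with limma's treat, where 0.872% of all genes rose.

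Features of 1 gene were available for 3 of these members. The 2 features of Pramel31 gave 4.35 and 4.38 in V6.5 and 4.56 and 4.94 in UtxKO. Those of Pramel39 gave 4.67 and 4.31 in V6.5 and 5.43 and 4.67 in UtxKO. The features of Pramel37 lay further apart, at 4.01 and 2.89 in V6.5 and 3.96 and 2.47 in UtxKO, with the same feature higher on both arrays. The SD between its features was 0.79 in V6.5 and 1.05 in UtxKO. The median was 0.14 on each array over multi-feature genes, those with the most features left out.

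Among the 7 high members, 4 had promoter windows that formed related pairs. RefSeq windows of 300 bases, from 250 before to 50 after the annotated start (build GRCm38.p6), were matched for 29 of the 34 members. Aligned to each other, 406 pairs had a median identity of 45%. The windows of Pramel20 and Pramel31 were 83.7% identical and those of Pramel37 and Pramel39 98.3%. Pramel16 and Pramel19 had no member window of 70% identity or more, and Pramel28 had no window. The 100 bases before the start are shown for these genes because they carry the highest ratios of the family, with 3 short motifs in capitals: TATAAA, then the related TATATA, and as a further motif GGTGTGG. They lie at chr4:143567367-143567466 on the + strand for Pramel20, chr4:144357864-144357963 on the + strand for Pramel31 and chr5:94306797-94306896 on the - strand for Pramel39.
Pramel20: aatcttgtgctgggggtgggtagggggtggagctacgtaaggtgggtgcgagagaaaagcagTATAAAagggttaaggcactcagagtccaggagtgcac
Pramel31: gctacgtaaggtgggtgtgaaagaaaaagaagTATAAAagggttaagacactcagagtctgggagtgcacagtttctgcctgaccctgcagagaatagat
Pramel39: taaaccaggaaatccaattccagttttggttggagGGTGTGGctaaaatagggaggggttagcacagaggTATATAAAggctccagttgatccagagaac
In Pramel20 the letters TATAAA began 38 bases before the annotated start and in Pramel31 68 bases before it. In Pramel39 an overlapping TATATA and TATAAA began 30 bases before the start, behind a GGTGTGG.

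Members with similar upstream sequence were also found at the low end of the family. Pramel25, Pramel26, Pramel27, Pramel29 and Pramel32 formed 1 group when windows of at least 70% identity were linked. Their ratios ran from -0.24 to 0.17 in V6.5 and from -0.03 to 0.20 in UtxKO, and 0 of the 5 passed in limma. The 100 bases before the start are shown for 3 of them because they also hold TATATA or TATAAA and GGTGTGG, as the high Pramel39 does. They lie at chr4:143789234-143789333 on the + strand for Pramel25, chr4:144213018-144213117 on the - strand for Pramel29 and chr4:143846397-143846496 on the + strand for Pramel27.
Pramel25: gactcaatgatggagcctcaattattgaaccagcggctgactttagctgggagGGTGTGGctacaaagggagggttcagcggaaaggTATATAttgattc
Pramel29: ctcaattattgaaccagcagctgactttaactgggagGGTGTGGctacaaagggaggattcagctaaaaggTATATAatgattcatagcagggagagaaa
Pramel27: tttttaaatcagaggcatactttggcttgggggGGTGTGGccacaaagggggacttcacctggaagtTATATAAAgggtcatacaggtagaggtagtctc
These letters therefore stood before members near 0 as well as before members with high ratios.

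Over all 29 windows, TATAAA or TATATA was found on either strand in 12, or 41.4%, against 17.1% of all 32851 RefSeq windows of the same length. TATATA was added after values had been seen, and TATAAA alone was in 7, or 24.1%, against 13.6%. The 12 windows are not independent. They include the linked group of 5 and the pairs Pramel20 with Pramel31 and Pramel37 with Pramel39. The 12 members with these letters had a median ratio of 1.44 in V6.5 and 0.85 in UtxKO, and 6 of them rose in limma. The 17 members without them had medians of 0.45 and 0.13, and 5 rose. Both sets spanned members near 0 and members above 4. GGTGTGG, searched after the sequences had been seen, was found in 11 of 29 member windows and in 7.58% of all windows. Of those 11 members 4 rose, and of the 18 without it 7 rose.

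The letters AGGTCA, the half-site of retinoid and other nuclear receptors, were in 0 of 29 member windows on either strand and in 16.3% of all windows. Pairs of AGGTCA in direct repeat with 5, 2 or 1 bases between them were also in 0 of 29, and in at most 0.04% of all windows. TTC and GAA with 3 bases between them, the core letters of a STAT site, were in 0 of 29 and in 8.3% of all windows. No match says only that these letters are not in these 300 bases. Members had a median of 1 CG per window, and all windows had a median of 7.

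**Figure D2:**
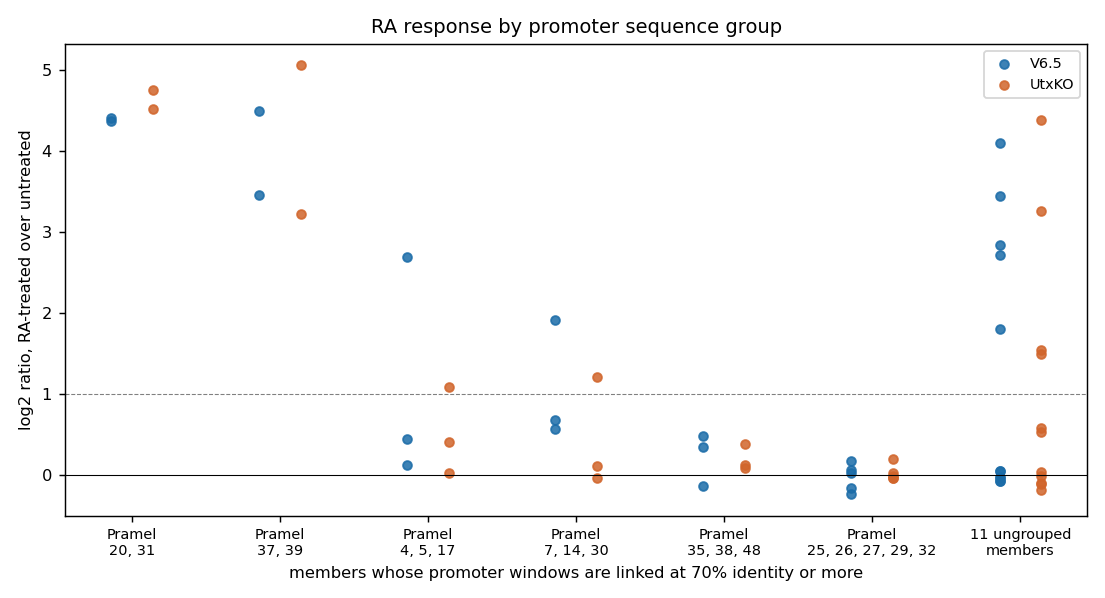
Deposited log2 ratio, treated over untreated (y axis), for the 29 Pramel genes with a promoter window, grouped along the x axis by windows linked at 70% identity or more, in V6.5 (blue) and UtxKO (orange). Both pairs on the left lie above 3 on both arrays, the group of 5 lies between -0.24 and 0.20, and the 11 members in no group span the range.

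The intermediate class held 6 members that reached 2-fold on at least 1 array but not 8-fold on both: Pramel21, Pramel24, Pramel17, Pramel14, Pramel6 and Pramel34. The ratio of Pramel21 was 2.84 in V6.5 and 1.54 in UtxKO, and that of Pramel24 2.71 and 1.498. Pramel17 had 2.68 and 1.09, and Pramel14 1.91 and 1.21. Each of these 4 genes was at least 2-fold higher on both arrays, with the lower ratio in UtxKO. In limma, Pramel14 rose by 1.56 ± 0.19 (adjusted p = 0.0206), Pramel24 by 2.10 ± 0.31 (adjusted p = 0.0281) and Pramel21 by 2.19 ± 0.33 (adjusted p = 0.0292). Pramel17 had a mean of 1.89 ± 0.41 and did not pass (adjusted p = 0.0539 in limma). It did pass when each array was centred on its median (adjusted p = 0.0397 in limma).

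Pramel6, known from the inner cell mass and ES cells, stood at 1.80 in V6.5 and at 0.58 in UtxKO and did not pass in limma (adjusted p = 0.0802). Its neighbour in the genome, Pramel7, had 0.57 and -0.04 and did not pass either (adjusted p = 0.348 in limma). Both genes thus had the higher ratio in V6.5, by 1.23 for Pramel6 and 0.61 for Pramel7 on the log2 scale. Each rested on 1 feature.

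Pramel34 passed with a mean of 0.99 ± 0.19 (adjusted p = 0.0439 in limma), from ratios of 1.34 in V6.5 and 0.64 in UtxKO. Its 3 features disagreed. They gave 1.65, 2.36 and 0.00 in V6.5 and 0.31, 1.503 and 0.10 in UtxKO, so 1 feature lay near 0 on both arrays. The platform pairs that feature with a different transcript accession from the other pair of features. Under the median of features, Pramel34 no longer passed (adjusted p = 0.134 in limma).

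Pramel14 had a close relative among the lower members. The promoter windows of Pramel14 and Pramel30 were 97.7% identical, and the ratios of Pramel30 were 0.68 in V6.5 and 0.11 in UtxKO. Pramel30 did not pass in limma (adjusted p = 0.182), and its 2 features gave 0.98 and 0.38 in V6.5 and 0.25 and -0.04 in UtxKO. Over the 250 bases before the start, 244 were identical, 5 differed and 2 stood against a gap. These stretches are shown because near-identical sequence went with different ratios, and capitals mark the bases not paired with the same base in the other gene. They lie at chr4:143994370-143994619 on the - strand for Pramel14 and chr4:144329999-144330248 on the + strand for Pramel30.
Pramel14: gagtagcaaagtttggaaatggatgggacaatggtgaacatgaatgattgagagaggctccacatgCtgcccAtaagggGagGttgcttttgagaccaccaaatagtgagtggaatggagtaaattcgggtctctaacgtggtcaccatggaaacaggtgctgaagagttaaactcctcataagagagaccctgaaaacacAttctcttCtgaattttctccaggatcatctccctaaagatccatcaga
Pramel30: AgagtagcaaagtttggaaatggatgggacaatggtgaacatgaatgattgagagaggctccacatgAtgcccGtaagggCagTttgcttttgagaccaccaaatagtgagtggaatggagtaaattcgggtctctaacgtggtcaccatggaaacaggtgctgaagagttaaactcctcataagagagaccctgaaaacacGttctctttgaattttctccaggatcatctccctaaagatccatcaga
The window of Pramel7 was 78% identical to that of Pramel14, and Pramel7 had the lowest ratios of these 3 genes on both arrays.

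The remaining 21 members stayed under 2-fold on both arrays. Of these, 17 lay within 0.5 of 0 on both, as did 17818 of all 22485 genes. The median of the 21 was 0.05 in V6.5 and 0.04 in UtxKO. In limma 3 of the 21 rose, where 8.93% of all genes rose. The ratios of these 3 were small and alike on both arrays. Pramel51 had 0.72 in V6.5 and 0.53 in UtxKO, Pramel5 had 0.45 and 0.41, and Pramel35 had 0.34 and 0.39. Pramel51 rose by 0.63 ± 0.09 (adjusted p = 0.0250 in limma), but its 2 features differed, at 0.38 and 1.06 in V6.5 and 0.03 and 1.04 in UtxKO. Pramel48, with 4 features from -0.19 to 1.12 in V6.5 and from -0.18 to 0.33 in UtxKO, had means of 0.49 and 0.13 and did not pass.

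Several low members are best known from other tissues. Pramel1, known from testis, had 0.05 in V6.5 and -0.18 in UtxKO, and Pramel3, an X-linked member, had -0.03 and -0.11. Pramel13 had -0.07 and 0.54 and stood highest among the low members in UtxKO without passing (adjusted p = 0.401 in limma). The lowest member in V6.5 was Pramel27 with -0.24, and the lowest in UtxKO was Pramel1. Pramel12, Pramel15, Pramel22, Pramel38, Pramel4, Pramel47 and the gene named Pramel completed the class without passing in limma.

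High members and members near 0 were interspersed along the genome. In the RefSeq table (GRCm38.p6), 53 genes of the family, Oog genes and Prame included, fell into 7 runs when neighbours up to 1 Mb apart were joined. The longest run, of 24 genes from Pramel1 to Pramel13, held 19 measured members. Of these, 7 were at least 2-fold higher on both arrays, and the median of the 19 was 0.17 in V6.5 and 0.20 in UtxKO. Pramel16, Pramel28 and Pramel14 followed each other in this run with V6.5 ratios of 4.09, 4.46 and 1.91. Pramel20 and Pramel21 were also neighbours, with 4.40 and 2.84 in V6.5, and the next gene, Pramel22, had -0.04.

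Single genes with high ratios stood between genes under 2-fold. Pramel31, at 4.36 in V6.5 and 4.75 in UtxKO, lay between Pramel30, which had 0.68 and 0.11, and Pramel15, which had -0.08 and -0.09. Pramel25, Pramel26 and Pramel27 followed Pramel24 directly and had V6.5 ratios of 0.06, -0.16 and -0.24 beside its 2.71. In the run of 18 genes from Pramel33 to Pramel50, 7 were measured, and the genes without a value were not analysed here. Pramel37 and Pramel39 were the high genes of that run, and Pramel38, in the order between them, had -0.13 and 0.08. Pramel17 and Pramel19, of a run of 3, had 2.68 and 3.45 in V6.5 and 1.09 and 3.26 in UtxKO. The members of the run with Prame, namely Pramel and Pramel3, lay near 0 on both arrays.

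**Figure D3:**
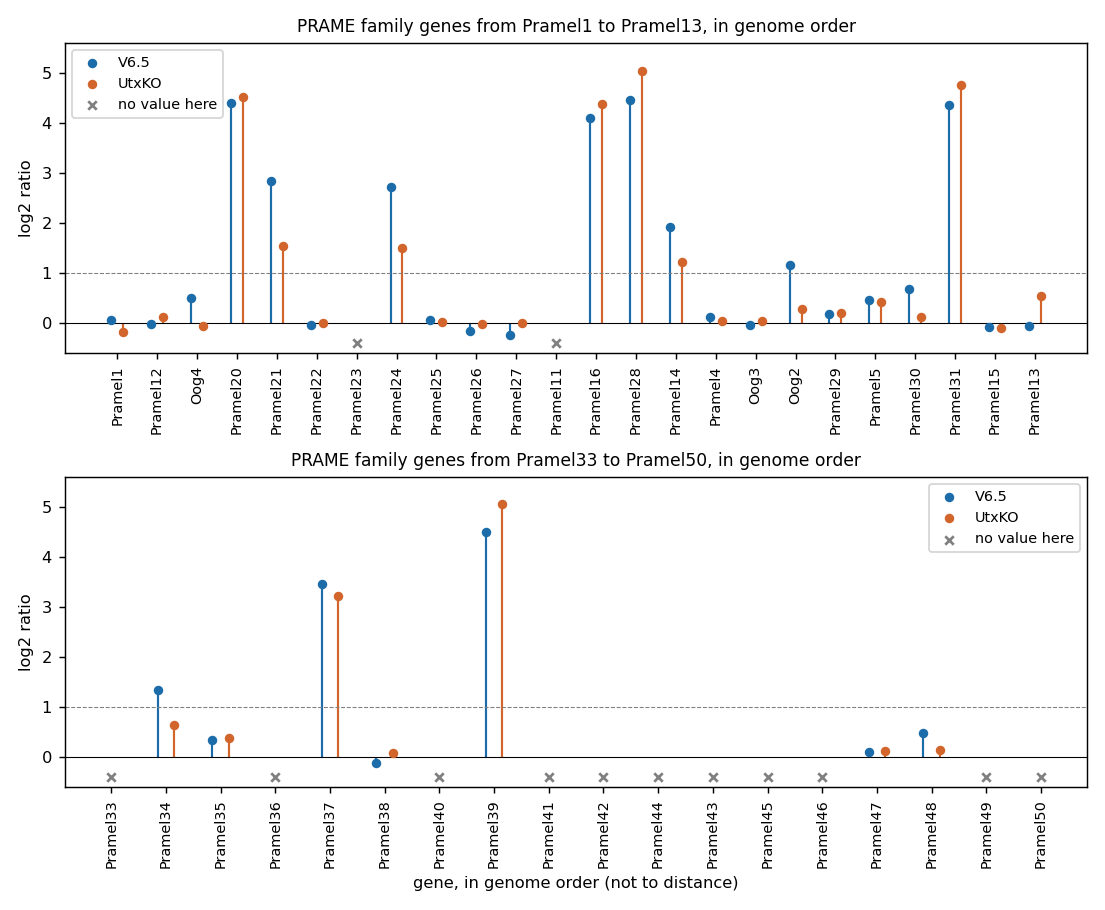
Deposited log2 ratio, treated over untreated (y axis), for PRAME family genes of the runs from Pramel1 to Pramel13 and from Pramel33 to Pramel50, in genome order along the x axis and not to distance, in V6.5 (blue) and UtxKO (orange). Grey crosses mark genes with no value here. Pramel31 (4.36 and 4.75) stands between Pramel30 (0.68 and 0.11) and Pramel15 (-0.08 and -0.09).

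The design sets the RA response of UtxKO beside that of V6.5. The difference, UtxKO ratio minus V6.5 ratio, ran from -1.59 to 0.60 over the 34 members with a median of -0.04, and has no test. For 4 members the UtxKO ratio was at least 2-fold below the V6.5 ratio, where 0.467% of all genes were. Pramel17 was lowest with a difference of -1.59, followed by Pramel21 with -1.29, Pramel6 with -1.23 and Pramel24 with -1.21. For 0 of 34 members was it at least 2-fold above, where 0.583% of all genes were.

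The difference is given by class as a description. The 6 intermediate members had the lower ratio in UtxKO, with differences from -1.59 to -0.70 and a median of -1.22. For Pramel6 and Pramel34 this direction is partly fixed by the bound, since they reached 2-fold in V6.5 alone; the other 4 reached it on both arrays. Among the 7 highest members, 2 had the lower ratio in UtxKO, with differences from -0.23 to 0.56 and a median of 0.28. Among the 21 members under 2-fold, 12 had the lower ratio in UtxKO, with differences from -0.61 to 0.60. By the same bounds, 793 genes outside the family were intermediate, of which 40.0% had the lower ratio in UtxKO and whose median difference was 0.19. Another 35 genes outside the family were at least 8-fold higher on both arrays, 34.3% of them lower in UtxKO, with a median of 0.27. The bounds were set after the values had been seen. For Pramel24, the intermediate gene with 3 features that agreed, the lowest feature in V6.5 (2.50) lay above the highest in UtxKO (1.71). Features of a gene share the RNA and the array and are not replicates, so these ranges do not test a difference between lines.

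**Figure D4:**
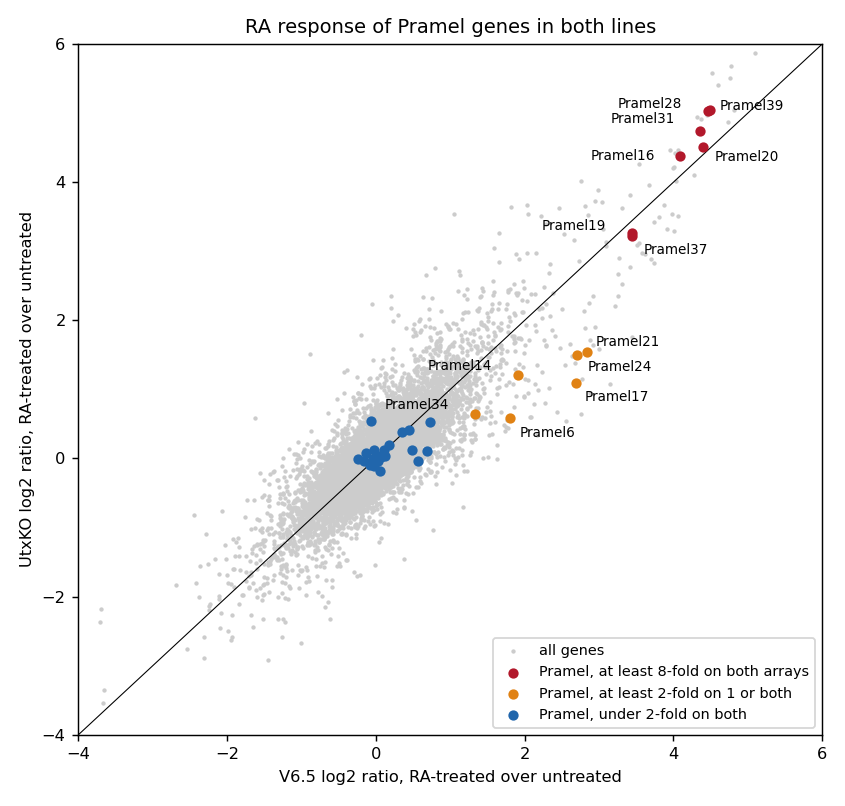
UtxKO log2 ratio (y axis) against V6.5 log2 ratio (x axis), both RA-treated over untreated, for all 22485 named genes (grey) and the 34 Pramel genes (coloured by class); the line marks equal ratios. The 6 intermediate members lie below the line and 5 of the 7 highest lie above it.

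Other genes of the 2-cell-like state, a transient state of ES cells resembling the 2-cell embryo, were set beside the family. Of 26 measured genes 16 rose in limma and 1 fell, where 8.93% of all genes rose and 7.93% fell. At an unadjusted p under 0.05 in limma 22 were higher and 4 lower, where 16.8% of all genes were higher and 4027 of 22485 lower. The medians of the 26 were 1.99 in V6.5 and 1.24 in UtxKO. Zscan4f, Zscan4e, Zscan4c and Gm4340 had the largest mean changes, from 4.93 ± 0.09 for Zscan4c to 5.48 ± 0.20 for Gm4340. The gene that fell was Dppa4 (-0.57 and -0.37), and Zfp352, a marker of the state, had -0.29 and -0.98 without passing. Usp17ld (1.85 and 0.74) and Spz1 (1.75 and 0.46) did not pass. By the bounds used for the Pramel genes, 7 of the 26 were at least 8-fold higher on both arrays, where 0.187% of all genes were. Of these 7, 1 was lower in UtxKO. The 12 intermediate genes had the lower ratio in UtxKO, with a median difference of -0.92. All 12 reached 2-fold in V6.5 and 6 of them in UtxKO, so for the others the bound partly fixes this direction. Tcstv3, for example, had 2.88 and 1.71, and Arg2 2.95 and 1.90. The list was chosen with results of these arrays known, and its members share RNA and arrays with the Pramel genes.

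PRAME family genes under other symbols were measured too. Of 6, Prame rose by 0.52 ± 0.08 and Lrrc14 by 0.59 ± 0.11 in limma, where 8.93% of all genes rose. Oog2, an oogenesin, had 1.16 in V6.5 and 0.28 in UtxKO and did not pass. Its promoter window was 94.3% identical to that of Pramel26, which had -0.16 and -0.03. Oog4 (0.50 and -0.07) did not pass either, and the window of Oog4 was 81.3% identical to that of Pramel32. The medians of these 6 genes were 0.54 in V6.5 and 0.15 in UtxKO.

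Known partners of PRAME proteins and their pathways are set beside the 8.93% of all genes that rose and the 7.93% that fell. At an unadjusted p under 0.05 in limma, 16.8% of all genes were higher and 4027 of 22485 lower. Of 17 Cullin-2 and Cullin-5 ligase genes, 0 rose and 0 fell in limma, with 3 higher and 1 lower at an unadjusted p under 0.05 and medians of 0.02 in V6.5 and 0.08 in UtxKO. The largest means in this list were those of Klhdc10 (0.40 and 0.30) and Lrr1 (-0.25 and -0.30). Of 13 genes of Uhrf1 and DNA methylation, 2 rose and 2 fell, with medians of -0.12 and -0.31. Mbd2 rose by 0.69 ± 0.08 and Uhrf2, a relative of Uhrf1, by 0.56 ± 0.09, while Tet1 (-0.98 and -1.16) and Tet2 (-0.48 and -0.83) fell and Dnmt3l (-0.97 and -0.36) and Dnmt3b (-0.53 and -0.31) did not pass. Of 11 retinoid receptors, partners and RA-induced genes, 4 rose and 1 fell, with medians of 0.24 and 0.03. The RA-induced genes Stra8 and Cyp26a1 served above to read the direction of the ratios, so their rise is no separate result. Stra8, Cyp26a1, Rarb (2.38 and 2.40) and Rxrg (0.86 and 0.66) rose, Polycomb subunit Eed (-0.43 and -0.44) fell, and Rarg (0.50 and 0.10) and Rara (-0.20 and -0.31) did not pass.

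The LIF and STAT3 pathway is known to drive Pramel7. Only untreated cells had LIF, so an effect of RA on this pathway cannot be told apart from that of taking LIF away. Of 12 genes of the pathway 6 fell and 0 rose in limma, where 7.93% of all genes fell and 8.93% rose. At an unadjusted p under 0.05 in limma 2 were higher and 9 lower, where 16.8% of all genes were higher and 4027 of 22485 lower. The medians of these 12 genes were -0.51 in V6.5 and -0.63 in UtxKO. Klf4 (-1.65 and -2.44), Socs3 (-1.26 and -1.45), Lifr (-1.33 and -1.29) and Junb (-0.57 and -1.09) fell, while Pim3 (-0.24 and -0.65) and Il6st (-0.51 and -0.25) did not pass. Of 12 naive pluripotency genes 0 rose and 3 fell in limma: Tcl1 (-1.38 and -1.43), Pou5f1 (-0.94 and -1.58) and Tbx3 (-0.62 and -1.04). At an unadjusted p under 0.05 in limma, 8 of the 12 were lower and 0 higher. Fgf4 (-0.64 and -2.07) and Klf5 (-0.80 and -0.35) did not pass, and the list medians were -0.61 and -0.52. Of 24 oocyte and germ-line genes 9 rose and 0 fell in limma, with medians of 0.48 and 0.44. By the unadjusted p under 0.05 in limma, 14 of the 24 were higher and 0 lower. Rec8 rose by 1.84 ± 0.09, Sohlh1 by 1.64 ± 0.10, Dazl by 1.17 ± 0.24 and Tex101 by 0.97 ± 0.10, and Mael (0.59 and 2.02) and Sohlh2 (0.55 and 1.32) did not pass.

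Markers of other cell types moved with RA as well, and their part in the Pramel ratios was not tested. Over all genes 8.93% rose and 7.93% fell in limma, and 16.8% were higher and 4027 of 22485 lower at an unadjusted p under 0.05. Of 12 fibroblast feeder markers 8 fell and 0 rose in limma, also at an unadjusted p under 0.05, with a median of -0.91 in V6.5 and -1.34 in UtxKO. S100a4 (-1.95 and -2.63), Lox (-2.12 and -2.04), Col1a2 (-1.25 and -1.69) and Col3a1 (-1.35 and -1.32) were among those that fell. Dcn (-0.38 and -0.05) and Lum (-0.19 and -0.08) did not pass. Of 10 trophoblast markers 0 fell and 3 rose in limma, namely Gata3 (2.15 and 2.97), Tfap2c (0.86 and 1.09) and Esx1 (0.59 and 0.38). By the unadjusted p under 0.05 in limma, 5 of the 10 were higher and 0 lower. The medians of this list were 0.26 in V6.5 and 0.41 in UtxKO. Its other genes did not pass, among them Ascl2 (-1.02 and -0.19), Krt8 (0.29 and 0.58) and Krt7 (-0.57 and 0.40). Of 10 markers of extra-embryonic endoderm 0 passed in limma, with 4 higher and 0 lower at an unadjusted p under 0.05 and medians of 0.11 and 0.32. The largest means in this list were those of Dab2 (0.37 and 0.83) and Sox7 (0.27 and 0.68). Of 7 neural markers 1 rose, Neurog2 (0.53 and 0.81), and 2 fell, Tubb3 (-0.71 and -0.95) and Stmn2 (-1.23 and -1.27). Nes (-0.86 and -0.19) and Map2 (-0.20 and -0.28) did not pass, and the list medians were -0.20 and -0.19.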

How the data were processed

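For each line, treated and untreated total RNA was compared on 1 two-colour Agilent array. The log2 ratios are the deposited values of 44397 features, each column centred on its mean, as the values show. Limma is named without version or role per the submitters' processing notes, and how background and dyes were corrected is not given in the sources used here. Log base 2 was taken from the range of values (largest 5.86); both arrays have the same dye orientation, so a dye bias would enter both alike. Platform annotation gave 33026 features 1 symbol, and the features of a gene were averaged. Limma 3.58.1 in R 4.3.3 fitted an intercept over both arrays (lmFit, eBayes, two-sided, 1 residual and 2.98 prior degrees of freedom) and p-values were adjusted by Benjamini-Hochberg over 22485 genes, with 0.05 as the threshold. Its p-values measure the spread between these 2 arrays of different lines, not between cultures. The step was tested on simulated data with independent noise on each array, which cannot show the effect of a bias shared by both arrays. Promoter windows came from RefSeq (GRCm38.p6) and were aligned end to end with Biopython 1.88, identity being identical bases over 300. Files carry no genome build. Gene positions from RefSeq (GRCm38.p6) served for neighbourhood, for the promoter windows and for the printed coordinates. Members, gene lists and tests were chosen with earlier results of these data known. The rule named all members past 2-fold on an array or past the test, Pramel6, Pramel7, and the 4 called and 2 uncalled genes of each list with the largest mean changes; other genes with printed values, the bounds of the classes, the 70% link and the motifs TATATA and GGTGTGG were chosen after values were seen. Alternatives were the median of features, single features, centring, scaling, robust eBayes, treat, fewer genes, a wider family and other folds. Tables and plots were made in Python 3.11.15 (pandas 2.3.3, numpy 2.4.6, matplotlib 3.10.9).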

Additional observations from a re-analysis of the deposited data

Results flagged for a closer look

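For 6 of 34 Pramel genes the ratios of the lines had opposite signs, which was not tested and which 24.4% of all genes showed. The difference, UtxKO minus V6.5 on the log2 scale, was -0.61 for Pramel7, -0.24 for Pramel1, -0.060 for Pramel32, 0.14 for Pramel12, 0.21 for Pramel38 and 0.60 for Pramel13.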

How the results depend on the processing

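The count of 14 members that rose in limma lay between 12 and 16 with the median of features, centring on the median, scaling to 1 median absolute deviation, robust eBayes, placeholder-named genes left out, single features (all features of a gene required to pass) and family genes under other symbols added. It was 7 with treat against 1.5-fold, which tests a larger change, and 6 among the 12 members with 2 or more features, an alternative chosen after seeing the data. The count of members that fell was 0 in each of these. At 4-fold, 7 members were past the bound in UtxKO, against 11 at 2-fold. At 1.5-fold, 8 members differed between the lines, against 4 at 2-fold. The share of all genes past 4-fold or 1.5-fold was not counted, so these counts cannot be set against it. The medians over the Pramel members moved by less than the median SD between features of a gene in each alternative run; medians of the other gene lists were not recomputed. Of the 17 single genes recomputed, Pramel34 lost its call with the median of features and with robust eBayes, 7 lost it with treat, Pramel17 gained one with centring and with placeholder-named genes left out, and the direction of no gene changed in these. Counting near-identical proteins as 1 was not run, since protein sequences were not used here; counting members at 90% promoter identity as 1, also chosen after seeing the data, gave medians of 0.40 in V6.5 and 0.40 in UtxKO. No paired analysis was possible because each line has 1 array, and leaving out an array leaves no test. The signal over background of the features was not used here and limits what ratios near 0 can show: a gene not expressed on either side and a gene expressed equally give the same ratio.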
